A study of Homo sapiens with 16 samples.

Results

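RPS27, RPS7, RPS27A and RPSA encode 4 proteins of the small subunit of the cytosolic ribosome, and their ribosome-protected fragments (RPFs), mRNA and translational efficiency were followed in HEK293T cells under endoplasmic reticulum (ER) stress. The 4 genes were chosen by symbol from the study's table of counts, with the transcript of most mRNA-Seq counts taken for each gene. All 4 were listed, each with 1 transcript, and all 4 passed the count filter, which makes them 4 of the 10970 transcripts tested in both assays. HEK293T is an established human cell line derived from embryonic kidney cells and carrying the SV40 large T antigen. The groups were untreated (UT) cells, cells treated for 1 hr with 1 µg/ml tunicamycin (Tm), cells treated for 1 hr with Tm together with 200 nM ISRIB, and cells treated for 1 hr with 200 nM ISRIB alone. Each treatment had 2 biological replicates, a and b, and each of the 8 lysates was split between Ribo-Seq and mRNA-Seq, which gave 16 libraries. All libraries came from this single cell line, and ribosomes were arrested with cycloheximide before lysis in every group.

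Ribosomal protein mRNAs are among the most abundant mRNAs of a growing cell, and many of them start with a C followed by a run of pyrimidines, the 5′ terminal oligopyrimidine (TOP) motif through which the mTOR pathway controls their translation. Tm blocks N-linked glycosylation, so that unfolded proteins accumulate in the ER and the kinase PERK phosphorylates the initiation factor eIF2α, which lowers translation initiation on most mRNAs. ISRIB makes cells insensitive to phosphorylated eIF2α. Ribo-Seq counts the mRNA fragments that ribosomes shield from nuclease, and a transcript's RPF count divided by its mRNA count is its translational efficiency.

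RPS27 is a small zinc-finger protein of the subunit, and RPS7 takes part in the processing of ribosomal RNA. RPS27A is made as a fusion, with ubiquitin at its N-terminus, and is cleaved into free ubiquitin and a ribosomal protein. RPSA, also known as the laminin receptor, is needed for the maturation of the small subunit. In GENCODE release 29 on GRCh38, all on the plus strand, RPS27 lies at chr1:153990755-153992155, RPS7 at chr2:3575205-3580920, RPS27A at chr2:55231903-55235853 and RPSA at chr3:39406689-39412542. The counts cover 65 codons of RPS27 (uc001fdv.3), 175 of RPS7 (uc002qxw.3), 137 of RPS27A (uc010yow.2) and 276 of RPSA (uc003cjp.3), in each case 20 fewer than the annotated coding sequence. GENCODE names 15 pseudogenes of RPS27, 15 of RPS7, 17 of RPS27A and 74 of RPSA, and reads shared between a gene and such a copy cannot be told apart in the counts.

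The bases around 1 annotated start of each gene are shown because the TOP motif is read there, and its pyrimidine run is not equally long at all 4 starts. Each line gives 10 bases before and 20 bases from a RefSeq transcription start on GRCh38.p14, plus strand, with the unbroken pyrimidine run that begins at a C start in capitals.
RPS27, chr1:153990752-153990781: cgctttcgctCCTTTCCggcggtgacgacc
RPS7, chr2:3575250-3575279: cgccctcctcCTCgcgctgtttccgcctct
RPS27A, chr2:55232678-55232707: ggcgttcttcCTTTTCgatccgccatctgc
RPSA, chr3:39406710-39406739: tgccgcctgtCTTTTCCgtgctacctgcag

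Read on the strand of the gene, as an unbroken run of C and T from the start base, this run was 7 bases long in RPS27 and RPSA, 6 in RPS27A and 3 in RPS7. RPS27A has 3 annotated starts, of which the one with a C is printed, and the other 2 begin with A and with G and have no such run. Of the 35116 starts in the RefSeq table, 7.5% begin with a C and a run of at least 3 pyrimidines, 3.02% with at least 6 and 2.1% with at least 7. In RPS7 and RPS27A several bases just before the printed start are pyrimidines too, so the length of the run depends on the exact start base. Which start HEK293T cells use was not measured here.

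On the joined transcripts the Ribo-Seq libraries held 3001612 to 11469150 counts and the mRNA-Seq libraries 8466193 to 24499266, and both Tm Ribo-Seq libraries were the shallowest of their assay. The ISRIB mRNA-Seq pair stood apart, with a chi-square per degree of freedom of 12.2 between replicates against 1.64 to 5.48 in the other 7 pairs. ATF4, whose main reading frame is translated more when eIF2α is phosphorylated, served as the check of the treatments. Its RPFs changed by 2.69 ± 0.10 (log2 fold change ± SE, n = 2 against 2) in Tm-treated cells and by -0.24 ± 0.11 in Tm + ISRIB, both against UT. Levels are given as CPM, the count scaled by the size of its library with edgeR's TMM factors, so that every value is relative to the other transcripts of that assay and total translation was not measured. The quasi-likelihood test of edgeR was run over all 10970 transcripts, p-values were adjusted by the Benjamini-Hochberg method, and a change passed at a false discovery rate (FDR) under 0.1. An exact permutation test of 1 transcript with 2 libraries against 2 has a smallest possible p of 0.33. The adjusted p-values and SEs therefore draw on a spread estimated over all treatments together and shared among transcripts of like abundance.

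In UT cells all 4 transcripts were abundant. Per kilobase of counted coding sequence, the mRNA level was 3832 ± 427 CPM for RPS27 (SD, n = 2), 3720 ± 112 for RPS27A, 3546 ± 7.78 for RPSA and 3358 ± 214 for RPS7, between the 24th and the 38th highest of the transcripts tested, whose median was 22.9. RPS27 could not be separated from RPS27A or RPSA in this order, since its replicates spanned 3530 to 4134. The RPF level per kilobase was 2274 ± 71.4 CPM for RPS7, 1744 ± 165 for RPS27, 1728 ± 48.8 for RPS27A and 1035 ± 66.7 for RPSA, against a median of 20.9 over all transcripts. RPS7 was above and RPSA below the others in both replicates, and RPS27 and RPS27A overlapped. The 4 mRNAs thus lay close together in mRNA per length and further apart in RPFs per length.

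Relative translational efficiency was taken as RPF CPM over mRNA CPM of the same lysate, divided by the median of all transcripts tested in that lysate, so that 1 is the median transcript. In UT cells it was 0.665 ± 0.061 for RPS7 (SD, n = 2), 0.455 ± 0.0022 for RPS27A, 0.451 ± 0.091 for RPS27 and 0.286 ± 0.018 for RPSA. All 4 were below the median transcript in every one of the 8 lysates. RPSA was at the 5.73 and 7.25 percentile of all transcripts in the UT lysates, and RPS7 at the 26.7 and 32.3 percentile. RPS27 and RPS27A again overlapped, with the RPS27 replicates at 0.386 and 0.515.

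After 1 hr of Tm, RPFs of all 4 transcripts fell against UT cells, and RPS27 had the largest fitted change. RPS27 RPFs were 317 and 363 CPM in the UT replicates a and b, 196 and 190 in Tm, 363 and 405 in Tm + ISRIB, and 410 and 419 in ISRIB. Both Tm libraries were below the other 6, a position that 15.1% of all transcripts tested shared. Its raw RPF counts in the Tm libraries, 841 and 581, were the lowest of the 4 genes. The log2 fold change in Tm against UT was -0.82 ± 0.08 (adjusted p = 2.6e-08), a level 0.567 times that of UT cells.

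RPS7 RPFs were 1167 and 1220 CPM in UT cells, 839 and 921 in Tm, 1236 and 1259 in Tm + ISRIB, and 1305 and 1349 in ISRIB. RPFs of the ubiquitin fusion RPS27A were 696 and 725 CPM in UT cells, 492 and 517 in Tm, 710 and 754 in Tm + ISRIB, and 800 and 743 in ISRIB. RPSA RPFs were 818 and 896 CPM in UT cells, 644 and 644 in Tm, 840 and 831 in Tm + ISRIB, and 929 and 944 in ISRIB. In each of the 3 genes, as in RPS27, the Tm libraries lay below the other 6 with no overlap. The log2 fold changes in Tm against UT were -0.44 ± 0.06 for RPS7 (adjusted p = 1.9e-05), -0.50 ± 0.07 for RPS27A (adjusted p = 6.7e-06) and -0.41 ± 0.07 for RPSA (adjusted p = 7.1e-05). All 4 of 4 therefore fell, where 7.21% of all transcripts tested fell at this threshold. With total counts in place of TMM, 4.91% of all transcripts fell, and the 4 genes still fell, by 0.36 to 0.77 on the log2 scale. The median of the 4 changes was -0.47, against -0.01 over all transcripts.

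**Figure D1:**
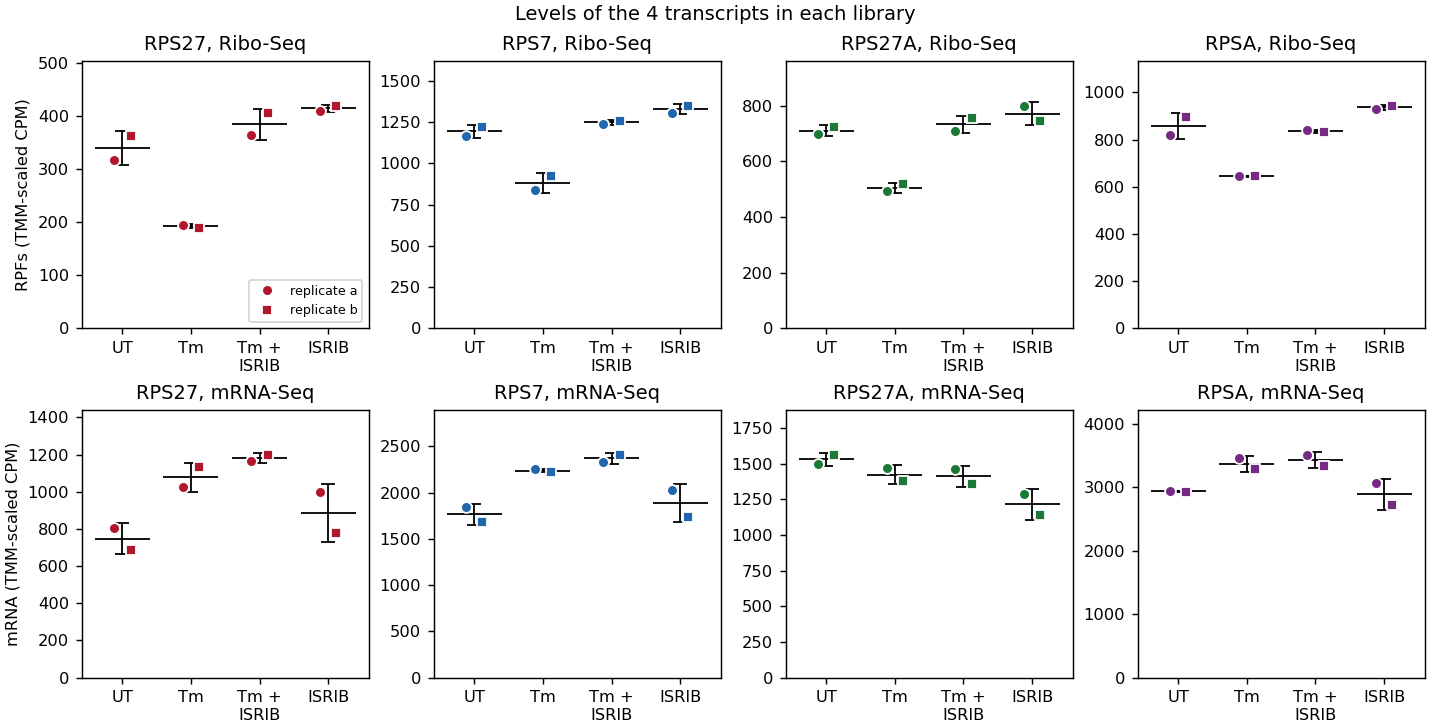
Levels of RPS27, RPS7, RPS27A and RPSA in each library, as TMM-scaled CPM on axes that start at 0, with RPFs in the upper row and mRNA in the lower row for the 4 treatments (UT, untreated). Circles are replicate a, squares replicate b, horizontal lines the mean and bars 1 SD (n = 2). In the upper row the 2 Tm libraries lie below the other 6 for each gene, and in the lower row they do not.

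When ISRIB was given with Tm, RPFs of the 4 transcripts stood close to those of UT cells. The log2 fold changes in Tm + ISRIB against UT were 0.17 ± 0.07 for RPS27, 0.06 ± 0.06 for RPS7, 0.04 ± 0.07 for RPS27A and -0.04 ± 0.06 for RPSA. None of the 4 passed the test with edgeR (adjusted p = 0.29 to 0.86) or with DESeq2's Wald test, where 2.65% of all transcripts passed with edgeR, and 1 of the 4, RPS27, had an unadjusted p under 0.05. Without the UT replicate b lysate, the RPS27 value was 0.28. Set directly against Tm, all 4 rose in Tm + ISRIB, where 9.53% of all transcripts rose (7.23% with total counts). The rise was 0.99 ± 0.08 for RPS27 (adjusted p = 3.7e-10), which is 1.99-fold, 0.50 ± 0.07 for RPS7 (adjusted p = 2.1e-06), 0.54 ± 0.07 for RPS27A (adjusted p = 1.8e-06) and 0.38 ± 0.07 for RPSA (adjusted p = 0.00024). This comparison uses the same Tm libraries as the one of Tm with UT, so the pair of results is not independent.

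ISRIB alone gave RPF log2 fold changes of 0.28 ± 0.07 for RPS27, 0.15 ± 0.06 for RPS7, 0.12 ± 0.07 for RPS27A and 0.13 ± 0.06 for RPSA against UT. Both ISRIB libraries were above both UT libraries for each of the 4 genes, as for 15.5% of all transcripts. None passed the test with edgeR (adjusted p = 0.52 to 0.999) or with DESeq2, and 2 of the 4, RPS27 and RPS7, had an unadjusted p under 0.05. With all libraries, 0.0182% of all transcripts passed with edgeR. Without the UT replicate b lysate the RPS27 value was 0.38. Tm + ISRIB against ISRIB gave -0.11 ± 0.08, -0.09 ± 0.06, -0.07 ± 0.07 and -0.16 ± 0.06 in the same order of genes, and none passed with edgeR (adjusted p = 0.30 to 0.75) or with DESeq2, where 1.34% of all transcripts passed with edgeR. RPSA had an unadjusted p under 0.05, 1 of the 4.

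The effect of Tm on RPFs differed between cells without and with ISRIB for 3 of the 4. The difference, the Tm effect with ISRIB minus that without, was 0.71 ± 0.11 for RPS27 (adjusted p = 0.00020), 0.42 ± 0.10 for RPS27A (adjusted p = 0.010) and 0.35 ± 0.09 for RPS7 (adjusted p = 0.026). It was 0.25 ± 0.09 for RPSA, which did not pass (adjusted p = 0.13). A positive difference at this threshold was found for 3.8% of all transcripts (3.55% with total counts). Over the fits without 1 lysate the difference ranged from 0.28 to 0.42 for RPS7, 0.37 to 0.47 for RPS27A and 0.18 to 0.31 for RPSA. The calls of RPS7, RPS27A and RPSA were not the same in every such fit. The share of all transcripts that passed varied between these fits too.

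The mRNA of the 4 genes did not follow the RPFs. RPS27 mRNA was 806 and 688 CPM in UT cells, 1023 and 1132 in Tm, 1164 and 1199 in Tm + ISRIB, and 997 and 777 in ISRIB. RPS7 mRNA was 1842 and 1684 CPM in UT cells, 2250 and 2227 in Tm, 2330 and 2409 in Tm + ISRIB, and 2030 and 1737 in ISRIB. For both genes the Tm libraries were above the UT libraries, as for 30.4% of all transcripts, and so were the Tm + ISRIB libraries, as for 31.1%, while the ISRIB libraries overlapped them. RPS27A mRNA was 1496 and 1562 CPM in UT cells, 1468 and 1378 in Tm, 1464 and 1356 in Tm + ISRIB, and 1289 and 1139 in ISRIB. RPSA mRNA was 2940 and 2931 CPM in UT cells, 3456 and 3284 in Tm, 3513 and 3343 in Tm + ISRIB, and 3065 and 2717 in ISRIB. As in RPS27 and RPS7, its Tm and Tm + ISRIB libraries were above the UT libraries and its ISRIB libraries overlapped them. RPS27A was thus the member whose 6 treated libraries were all below both UT libraries, as for 9.29% of all transcripts.

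In Tm against UT, mRNA rose for RPS27 by 0.53 ± 0.12 on the log2 scale (adjusted p = 0.041) and for RPS7 by 0.34 ± 0.09 (adjusted p = 0.058), where 6.57% of all transcripts rose (4.37% with total counts). The values for RPSA, 0.20 ± 0.08 (adjusted p = 0.16), and for RPS27A, -0.10 ± 0.08 (adjusted p = 0.46), did not pass. In Tm + ISRIB against UT, mRNA rose for RPS27 by 0.66 ± 0.12 (adjusted p = 0.019) and for RPS7 by 0.43 ± 0.09 (adjusted p = 0.029), where 8.27% of all transcripts rose (6.34% with total counts). RPSA, at 0.22 ± 0.08 (adjusted p = 0.12), and RPS27A, at -0.12 ± 0.08 (adjusted p = 0.38), did not pass. The calls in Tm depended on the UT, Tm and ISRIB lysates. All 4 treatments shared the same estimate of the spread, so the ISRIB lysates also enter the test of Tm against UT. None of the 4 passed without Tm replicate a, Tm replicate b or UT replicate b, where 0% of all transcripts rose in edgeR, and 1, RPS27, passed without UT replicate a, where 1.54% rose. Both calls stayed without either Tm + ISRIB lysate, and 3 genes passed without ISRIB replicate a or b, where 14.2% and 13.2% of all transcripts rose. In Tm + ISRIB, none passed without Tm + ISRIB replicate a or UT replicate b, where 0.228% and 0% of all transcripts rose, and 1 passed without Tm + ISRIB replicate b, where 1.42% rose. There too 3 passed without ISRIB replicate a or b, where 15.7% and 15% of all transcripts rose.

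Against Tm, mRNA in Tm + ISRIB changed by 0.13 ± 0.12 for RPS27, 0.08 ± 0.09 for RPS7, -0.01 ± 0.08 for RPS27A and 0.02 ± 0.08 for RPSA on the log2 scale, and none passed or had an unadjusted p under 0.05. With edgeR 0% of the 10970 transcripts passed in this comparison, with DESeq2 also 0, and 198 had an unadjusted p under 0.05. ISRIB alone against UT gave 0.25 ± 0.12 for RPS27, 0.10 ± 0.09 for RPS7, -0.33 ± 0.08 for RPS27A and -0.02 ± 0.08 for RPSA, and none passed with edgeR (adjusted p = 0.12 to 0.93), where 1.15% of all transcripts did. Of the 4, 1 had an unadjusted p under 0.05, as did 1584 of all 10970 transcripts, and this gene was RPS27A. It passed in this comparison with DESeq2's Wald test (-0.33, adjusted p = 0.032), with total counts (-0.34, adjusted p = 0.095), without the count filter (-0.35, adjusted p = 0.066) and without either ISRIB lysate. RPS27 mRNA in this comparison passed without ISRIB replicate b (0.42, adjusted p = 0.024) and stood at 0.05 without ISRIB replicate a and at 0.14 without UT replicate b, neither of which passed. Without ISRIB replicate a or b, 7.22% and 8.25% of all transcripts passed. All 4 mRNAs were higher in ISRIB replicate a than in replicate b, by 0.36 (log2) for RPS27, 0.22 for RPS7, 0.18 for RPS27A and 0.17 for RPSA. The part of this pair's spread in the ISRIB comparisons and in the other mRNA comparisons was not tested. Tm + ISRIB against ISRIB gave 0.41 ± 0.12, 0.33 ± 0.09, 0.22 ± 0.08 and 0.25 ± 0.08 in that order. None of the 4 passed with edgeR or DESeq2, and all 4 had an unadjusted p under 0.05. Of all 10970 transcripts 0% passed with edgeR and 1 with DESeq2, and 1697 had an unadjusted p under 0.05. Without ISRIB replicate a the value was 0.62 for RPS27 and 0.32 for RPS27A. Over all fits without 1 lysate it ranged from 0.24 to 0.62 for RPS27 and 0.13 to 0.32 for RPS27A. The Tm effect on mRNA with ISRIB minus that without was -0.12 ± 0.16 for RPS27, -0.01 ± 0.12 for RPS7, 0.32 ± 0.12 for RPS27A and 0.05 ± 0.11 for RPSA. None passed with edgeR or DESeq2, and 0% of all transcripts passed with edgeR. An unadjusted p under 0.05 was found for 1 of the 4 (RPS27A) and for 956 of all 10970 transcripts. Over the fits without 1 lysate this difference ranged from 0.23 to 0.42 for RPS27A.

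Translational efficiency, the RPF change less the mRNA change fitted over all 16 libraries, fell in Tm for all 4 transcripts. The relative efficiency of RPS27 was 0.386 and 0.515 in UT cells, 0.187 and 0.164 in Tm, 0.306 and 0.33 in Tm + ISRIB, and 0.403 and 0.528 in ISRIB. In Tm it stood at the 2.35 and 2.07 percentile of all transcripts. For RPS7 it was 0.622 and 0.708 in UT cells, 0.365 and 0.406 in Tm, 0.519 and 0.511 in Tm + ISRIB, and 0.631 and 0.760 in ISRIB. For RPS27A it was 0.456 and 0.453 in UT cells, 0.327 and 0.368 in Tm, 0.475 and 0.544 in Tm + ISRIB, and 0.608 and 0.639 in ISRIB. RPSA stood at 0.273 and 0.299 in UT cells, 0.182 and 0.192 in Tm, 0.234 and 0.243 in Tm + ISRIB, and 0.297 and 0.340 in ISRIB. The 2 Tm lysates were below the other 6 in each gene, as for 12.2% of all transcripts. The Tm + ISRIB lysates lay below the UT lysates for RPS27, RPS7 and RPSA and above them for RPS27A, and either position was shared by 25.8% of all transcripts.

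**Figure D2:**
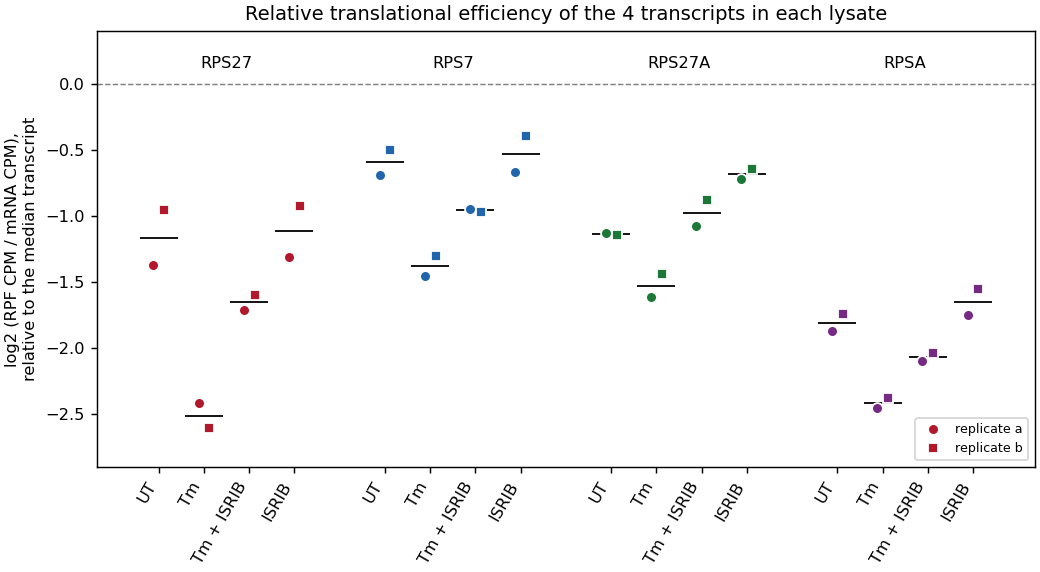
Relative translational efficiency of RPS27, RPS7, RPS27A and RPSA in each lysate, as the log2 ratio of RPF CPM to mRNA CPM relative to the median transcript (dashed line at 0), for the 4 treatments (UT, untreated). Circles are replicate a, squares replicate b and horizontal lines the mean (n = 2). All values are below 0, the Tm lysates are lowest for each gene, and the Tm + ISRIB lysates of RPS27A are above its UT lysates.

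In Tm against UT the log2 change in translational efficiency was -1.35 ± 0.15 for RPS27 (adjusted p = 1.7e-05), -0.78 ± 0.11 for RPS7 (adjusted p = 0.00022), -0.61 ± 0.10 for RPSA (adjusted p = 0.00090) and -0.39 ± 0.11 for RPS27A (adjusted p = 0.026), where 8.71% of all transcripts fell (5.69% with total counts). RPS27 was the 38th lowest of the 10970 transcripts. In RPS27 the RPF change of -0.82 and the mRNA change of 0.53 both entered the fall in efficiency, and in RPS27A the RPF change of -0.50 stood beside an mRNA change of -0.10. The call of RPS27A was lost without UT replicate a (-0.39, adjusted p = 0.11), UT replicate b (-0.39, adjusted p = 0.12) or Tm replicate a (-0.31, adjusted p = 0.28).

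In Tm + ISRIB against UT, efficiency fell for RPS27 by 0.49 ± 0.14 (adjusted p = 0.057) and for RPS7 by 0.36 ± 0.11 (adjusted p = 0.063), where 5% of all transcripts fell (3.94% with total counts). RPFs were not lower in this comparison, at 0.17 for RPS27 and 0.06 for RPS7, and mRNA was higher, at 0.66 and 0.43. The values for RPSA, -0.26 ± 0.10 (adjusted p = 0.15), and RPS27A, 0.16 ± 0.11 (adjusted p = 0.42), did not pass. Over the fits without 1 lysate the change ranged from -0.70 to -0.27 for RPS27 and -0.46 to -0.26 for RPS7. It ranged from -0.33 to -0.19 for RPSA and 0.06 to 0.26 for RPS27A. The number of the 4 that passed changed between these fits, and so did the share of all transcripts that fell. Against Tm, efficiency in Tm + ISRIB rose for all 4, by 0.86 ± 0.15 for RPS27 (adjusted p = 0.0027), 0.55 ± 0.11 for RPS27A (adjusted p = 0.0085), 0.42 ± 0.11 for RPS7 (adjusted p = 0.044) and 0.35 ± 0.10 for RPSA (adjusted p = 0.071), where 3.68% of all transcripts rose (2.51% with total counts). With 1 of these 4 lysates left out, 1 gene passed without Tm replicate a, Tm replicate b or Tm + ISRIB replicate b, and 2 passed without Tm + ISRIB replicate a, and in these fits 0.474% to 1.17% of all transcripts rose. RPSA also did not pass without the count filter (0.34, adjusted p = 0.11) or with a term for each lysate (0.35, adjusted p = 0.10).

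ISRIB alone against UT gave efficiency changes of 0.04 ± 0.15 for RPS27, 0.06 ± 0.11 for RPS7, 0.45 ± 0.11 for RPS27A and 0.15 ± 0.10 for RPSA, and none passed with edgeR (adjusted p = 0.15 to 0.97), where 0.191% of all transcripts did. RPS27A, the 1 gene of the 4 with an unadjusted p under 0.05, passed with DESeq2's Wald test (0.45, adjusted p = 0.041). Against ISRIB, efficiency in Tm + ISRIB fell for RPS7 by 0.42 ± 0.11 (adjusted p = 0.098) and for RPSA by 0.41 ± 0.10 (adjusted p = 0.082), where 0.547% of all transcripts fell (0.365% with total counts). The RPF changes here were -0.09 for RPS7 and -0.16 for RPSA, and the mRNA changes 0.33 and 0.25, none of which passed. RPS27, at -0.52 ± 0.15 (adjusted p = 0.11), and RPS27A, at -0.29 ± 0.11 (adjusted p = 0.23), did not pass. The calls of RPS7 and RPSA did not depend on the ISRIB lysates alone. Both were lost when 1 Tm lysate, 1 Tm + ISRIB lysate or ISRIB replicate b was left out, whichever replicate of Tm or Tm + ISRIB it was. The share of all transcripts that fell varied between these fits too. Over all fits without 1 lysate the change ranged from -0.57 to -0.29 for RPS7 and -0.52 to -0.31 for RPSA. It ranged from -0.74 to -0.33 for RPS27 and -0.38 to -0.19 for RPS27A. RPS7 also did not pass with DESeq2's size factors (-0.42, adjusted p = 0.10), total counts (-0.36, adjusted p = 0.11), upper-quartile scaling (-0.42, adjusted p = 0.11), a minimum of 50 counts (-0.41, adjusted p = 0.11) or a term for each lysate (-0.42, adjusted p = 0.10). RPS27 passed with DESeq2's Wald test (-0.52, adjusted p = 0.081), without the count filter (-0.55, adjusted p = 0.055) and with a term for each lysate (-0.54, adjusted p = 0.095). The Tm effect on efficiency differed with and without ISRIB for RPS27 alone among the 4, by 0.82 ± 0.21 (adjusted p = 0.075), where a positive difference passed for 0.957% of all transcripts (0.675% with total counts). RPS7 gave 0.37 ± 0.16, RPSA 0.20 ± 0.15 and RPS27A 0.10 ± 0.15, none of which passed. Over the fits without 1 lysate the RPS27 difference ranged from 0.61 to 1.04. Its call was lost in most of these fits, and the share of all transcripts that passed varied too.

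**Figure D3:**
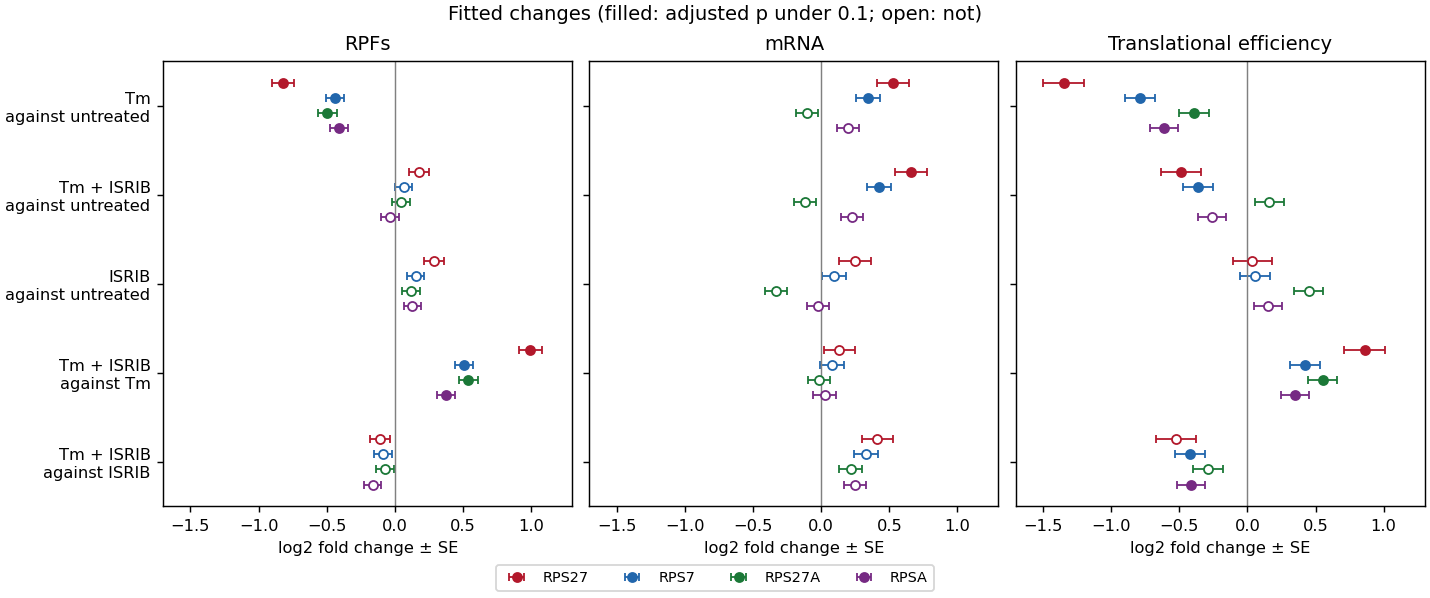
Fitted log2 fold changes ± SE of RPFs (left), mRNA (middle) and translational efficiency (right) for the 4 genes in 5 comparisons, with filled points at an adjusted p under 0.1 by edgeR. RPF points are filled for all 4 genes in Tm against untreated and in Tm + ISRIB against Tm, and for none in the other 3 comparisons.

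The 4 transcripts did not change by the same amount. The RPF change of RPS27 in Tm was below that of RPS7 by 0.38, of RPS27A by 0.32 and of RPSA by 0.41 on the log2 scale, each with a combined SE of 0.10 or 0.11 when the genes are taken as independent. The changes of RPS7, RPS27A and RPSA differed from each other by 0.03 to 0.08, less than their combined SEs of 0.09. The ratio of RPS27 to RPSA RPFs per length, which needs no scaling between libraries, was 1.65 and 1.72 in UT cells, 1.29 and 1.25 in Tm, 1.84 and 2.07 in Tm + ISRIB, and 1.87 and 1.89 in ISRIB. The Tm libraries were lowest in this ratio. The same ratio for RPS7 was 2.25 and 2.15 in UT cells against 2.06 and 2.26 in Tm, and for RPS27A it was 1.72 and 1.63 against 1.54 and 1.62.

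For mRNA, the ratio of RPS27 to RPSA per length went from 1.16 and 0.997 in UT cells to 1.26 and 1.46 in Tm and 1.41 and 1.52 in Tm + ISRIB. The RPS27A ratio went the other way, from 1.03 and 1.07 in UT cells to 0.856 and 0.845 in Tm, 0.839 and 0.817 in Tm + ISRIB, and 0.847 and 0.845 in ISRIB. All 6 treated libraries were below both UT libraries in this RPS27A ratio. RPS27 was also the shortest of the 4 coding sequences and had the fewest RPF counts in every library.

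As a share of the library, the 4 transcripts together held 0.301% and 0.313% of Ribo-Seq counts in UT cells, 0.224% and 0.232% in Tm, 0.314% and 0.321% in Tm + ISRIB, and 0.335% and 0.335% in ISRIB. Their share of mRNA-Seq counts was 0.720% and 0.692% in UT cells, 0.806% and 0.791% in Tm, 0.830% and 0.824% in Tm + ISRIB, and 0.736% and 0.645% in ISRIB. In Tm the summed RPF share was thus below, and the summed mRNA share above, that of UT cells in both replicates.

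The other cytosolic ribosomal proteins with a readable symbol were 9 genes, whose ranges overlapped those of the 4 without lying inside them. RPFs fell in Tm for 9 of 9, where 7.21% of all transcripts fell, with a median log2 change of -0.47, from -0.63 in RPL11 to -0.34 in RPL15, both proteins of the large subunit. In Tm + ISRIB against Tm, RPFs rose for 9 of 9, where 9.53% of all transcripts rose, with a median of 0.54, from 0.30 in RPL15 to 0.74 in RPL11. Their efficiency fell in Tm for 7 of 9, where 8.71% of all transcripts fell, with a median of -0.64, from -1.02 in RPL32 to -0.27 in RPL22. The mRNA of this list rose in Tm for 1 of 9, near the 6.57% of all transcripts that rose, with a median of 0.17, from -0.17 in RPL37A to 0.51 in RPL32. RPS27, at -0.82 in RPFs, lay below all 9, and the other 3 members lay within their RPF range.

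The small subunit of the mitochondrial ribosome, which translates the mRNAs encoded in mitochondria, was taken as the other small subunit of the cell. Of its 6 proteins with a readable symbol, RPFs fell in Tm for 2, where 7.21% of all transcripts fell, and the median log2 change was -0.08, from -0.39 in MRPS15 to 0.18 in MRPS21. In Tm + ISRIB against Tm, RPFs rose for 1 and fell for 1 of the 6, where 9.53% of all transcripts rose and 8.2% fell, with a median of -0.04, from -0.41 in MRPS21 to 0.40 in MRPS15. Efficiency fell in Tm for 2 of 6, where 8.71% of all transcripts fell, with a median of -0.20. The cytosolic list and the mitochondrial list were not tested against each other.

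**Figure D4:**
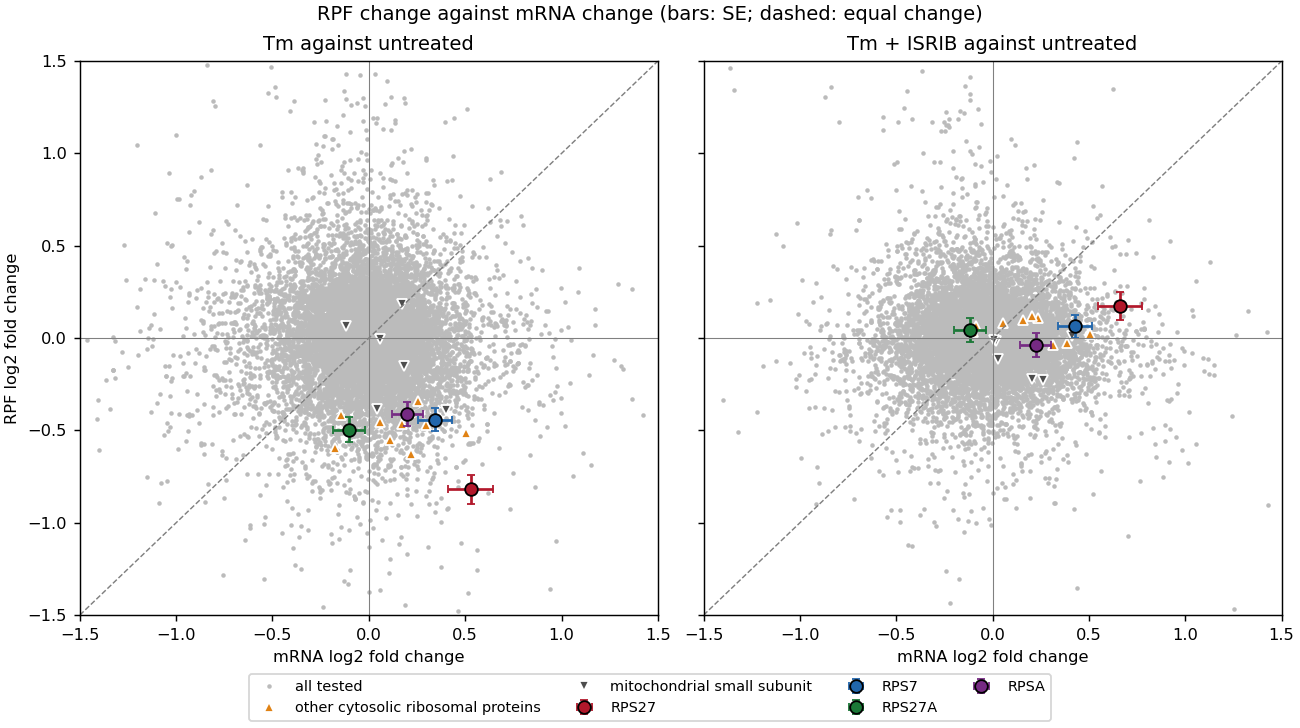
RPF log2 fold change against mRNA log2 fold change for all transcripts tested (grey), the other cytosolic ribosomal proteins (orange, n = 9), the mitochondrial small subunit (dark grey, n = 6) and RPS27, RPS7, RPS27A and RPSA with bars of 1 SE, in Tm (left) and Tm + ISRIB (right) against untreated cells. The dashed line marks equal change, 24 and 27 transcripts lie outside the axes, and the 4 genes lie at RPF changes of -0.82 to -0.41 on the left and -0.04 to 0.17 on the right.

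Over the 8 Ribo-Seq libraries, each member's centred log2 RPF profile correlated with the mean of the other 3 at r = 0.987 for RPS27, 0.987 for RPS7, 0.985 for RPS27A and 0.971 for RPSA. Among 1345 other named transcripts with a mean of at least 100 RPF counts, the 5 closest to the mean profile of the 4 had r between 0.970 and 0.995 over the same libraries. Of these 5, 3 were cytosolic ribosomal proteins, among them RPL11 (r = 0.983), and LRRFIP2 (r = 0.970) was not one of them. RPFs of LRRFIP2 changed by -0.36 in Tm against UT on the log2 scale. These points share libraries and treatments, and the correlations are descriptions with no test.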

How the data were processed

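Ribo-Seq and mRNA-Seq were measured in 16 libraries of HEK293T cells (4 treatments, 2 replicates, 8 lysates), with treatment and replicate letter taken from the labels. For each library the authors deposited raw read counts over the coding sequence of UCSC transcripts, not normalized or pooled, with the number of codons counted. The submitters' processing notes name hg19, CASAVA 1.8, Bowtie 1.0.0 and TopHat2 (2.0.10 and 2.0.7). How reads matching several isoforms or pseudogenes were assigned, and whether strand was used, is not given in the sources used here. The study's methods name DESeq with Benjamini-Hochberg adjustment.

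Transcripts were joined across assays by identifier without its version and by equal counted length, which left 19044 of 21520 Ribo-Seq transcripts. Symbols came from the study's table of counts as far as it was readable, which named 1949 of them. The 4 genes and all gene lists were chosen with earlier results of these data known. The lists are the other cytosolic ribosomal proteins (9 genes), the mitochondrial small subunit (6) and other translation genes (3) with a readable symbol, from which the genes with the largest and smallest change are named. ATF4 served as a check, and the 5 named transcripts closest in RPF profile were taken from those with a mean of at least 100 counts. Some of these 5 are not reported here.

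filterByExpr at 10 counts in both assays left 10970 transcripts. TMM scaling within assay, glmQLFit and glmQLFTest of edgeR 4.0.16 (R 4.3.3) were used without a replicate block, over 8 libraries for RPFs and for mRNA, and over 16 for efficiency, which was the treatment-by-assay interaction. The SE is the absolute log2 fold change over the square root of F. The script was tested on simulated data. Depth was 3001612 to 11469150 counts in Ribo-Seq and 8466193 to 24499266 in mRNA-Seq, and the common biological coefficient of variation was 5.62% and 6.7%. No molecular identifiers are named in the sources used here, so PCR copies may be among the counts.

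Alternatives were other scalings, other count filters, DESeq2 1.42.0, blocks for the replicate letter or the lysate, and each lysate left out in turn. Starts and 30-base windows are from RefSeq on GRCh38.p14 and gene positions from GENCODE release 29, matched by symbol for 4 of 4 genes, and are not coordinates of the authors' files. Tables and figures were made with Python 3.11.15, pandas 2.3.3 and matplotlib 3.10.9.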

Additional observations from a re-analysis of the deposited data

Results flagged for a closer look

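The effect of Tm against its control differed between cells without and with ISRIB, by the test of the difference itself in edgeR, for 4 values of the genes described here. For RPFs the log2 difference (Tm effect with ISRIB minus Tm effect without) was 0.71 in RPS27 (adjusted p = 0.00020), 0.35 in RPS7 (adjusted p = 0.026) and 0.42 in RPS27A (adjusted p = 0.010). For translational efficiency it was 0.82 in RPS27 (adjusted p = 0.075). Each of the 4 values was positive in every alternative and every fit without a lysate, but calls were lost in the fits without a lysate. Over these fits the RPF value ranged from 0.60 to 0.80 in RPS27, 0.28 to 0.42 in RPS7 and 0.37 to 0.47 in RPS27A. The efficiency value of RPS27 ranged from 0.61 to 1.04, and its call was lost in most of these fits. Only the RPF value of RPS27 kept its call throughout, and the share of all transcripts that passed varied between these fits. With 2 replicates per treatment, no group was large enough for a test of single outlying samples.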

How the results depend on the processing

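All 4 genes passed for RPFs in Tm against untreated and in Tm + ISRIB against Tm under every alternative and without any one lysate. Over the other scalings, filters, tests and blocks the RPF change in Tm ranged from -0.82 to -0.77 for RPS27, -0.44 to -0.39 for RPS7, -0.50 to -0.44 for RPS27A and -0.41 to -0.36 for RPSA, and no scaling moved the median of all transcripts by over 0.1. Of 300 recomputed counts of genes that passed, 252 stayed within 1.5 times the count in the report. Counts that stayed at 0 or went from 4 to 3 are among these 252, so the figure does not measure how stable single calls were. For mRNA in ISRIB against untreated, 1 of 4 passed, where 0 did in the report, with the replicate block, total counts, no filter, DESeq2's Wald test and the crossed block. Of all 10970 transcripts 126 passed in the report, 176 with the replicate block, 116 with total counts and 117 with DESeq2. Without a filter it was 214 of 14187. For efficiency in ISRIB against untreated, 1 passed (0 in the report) with the replicate block and DESeq2's Wald test. There 38 and 33 of all 10970 transcripts passed, against 21 in the report. For efficiency in Tm + ISRIB against ISRIB, 1 passed (2 in the report) with DESeq2's size factors, total counts, upper-quartile scaling and a filter at 50 counts. In either direction, 118, 154 and 119 of all 10970 transcripts passed with these scalings, against 129 in the report. With the filter at 50 counts it was 79 of 8771. The cause was not tested.

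Without 1 lysate, the lone library of a treatment is assumed to vary like the others. In several comparisons the number of the 4 genes that passed changed between these fits, and so did the share of all transcripts that passed. RPFs of RPS27 ranged from 0.0831 to 0.28 in Tm + ISRIB and 0.19 to 0.38 in ISRIB, both against untreated. For mRNA, RPS27 ranged from 0.42 to 0.65 in Tm and 0.55 to 0.78 in Tm + ISRIB against untreated. The values for RPS7 were 0.28 to 0.41 and 0.36 to 0.49. In Tm + ISRIB against ISRIB, mRNA ranged from 0.24 to 0.62 for RPS27 and 0.22 to 0.46 for RPS7. There RPS27A ranged from 0.13 to 0.32 and RPSA from 0.16 to 0.35. Efficiency in Tm + ISRIB against Tm ranged from 0.77 to 0.95 for RPS27 and 0.35 to 0.50 for RPS7. It ranged from 0.45 to 0.65 for RPS27A and 0.31 to 0.39 for RPSA.

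Values that changed sign were small and had not passed. The RPS7 mRNA difference of the Tm effects (-0.01) was 0.0005 with total counts and 0.0101 without a filter. Without 1 lysate, the efficiency value in ISRIB against untreated ranged from -0.17 to 0.25 for RPS27 and -0.0771 to 0.20 for RPS7. The mRNA value in Tm + ISRIB against Tm ranged from -0.0697 to 0.0406 for RPS27A and -0.0117 to 0.0619 for RPSA. The mRNA value for the difference of the Tm effects ranged from -0.12 to 0.11 for RPS7, -0.28 to 0.0828 for RPS27 and -0.0378 to 0.14 for RPSA. The mRNA value in ISRIB against untreated ranged from -0.0286 to 0.20 for RPS7 and -0.12 to 0.0625 for RPSA. The RPF value in Tm + ISRIB against untreated ranged from -0.10 to 0.033 for RPSA and -0.0011 to 0.0858 for RPS27A.

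Same-letter libraries deviated together at correlations of -0.05 to 0.12 in Ribo-Seq and -0.18 to 0.41 in mRNA-Seq, the highest between Tm + ISRIB and ISRIB. With 2 replicates these values do not settle whether a letter marks a shared source. With the replicate block, the mRNA calls over all transcripts in Tm against untreated went from 1209 to 1780 (1878 with the crossed block below). Among the 4 genes 4 more values passed, which were RPSA mRNA in Tm + ISRIB against untreated (0.22, adjusted p = 0.082), RPS27A mRNA (-0.34, adjusted p = 0.080) and efficiency (0.45, adjusted p = 0.095) in ISRIB against untreated, and RPS27 efficiency in Tm + ISRIB against ISRIB (-0.53, adjusted p = 0.056), and no call was lost. Exchanging the letters of Tm + ISRIB and ISRIB for mRNA, an alternative chosen after seeing the data, gave 2 genes in Tm and 3 in Tm + ISRIB against untreated. The shallow Tm Ribo-Seq libraries, with 581 RPF counts for RPS27 in replicate b, limit the precision in these comparisons.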

Other observations

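The other translation genes with a readable symbol were EEF1B2, a subunit of the exchange factor of elongation factor eEF1A, PABPC4, a cytoplasmic poly(A)-binding protein, and EIF3I, a subunit of the initiation factor eIF3. In Tm against UT, RPFs fell for 2 of these 3, with a median log2 change of -0.23, from -0.30 in EEF1B2 to -0.12 in EIF3I, where 7.21% of all transcripts fell. In Tm + ISRIB against Tm, RPFs rose for 2 of 3, from 0.10 in EIF3I to 0.45 in EEF1B2, where 9.53% of all transcripts rose. Their mRNA rose in Tm for 2 of 3, from -0.34 in PABPC4 to 0.42 in EIF3I, where 6.57% of all transcripts rose. Efficiency fell in Tm for 2 of 3, from -0.64 in EEF1B2 to 0.11 in PABPC4, where 8.71% of all transcripts fell.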
